A study of Mus musculus with 41 samples.

Results

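Caprin1 knockout (KO) cells were compared with wild-type (WT) cells after 4 h of α-amanitin, within 1 deposited count table. The comparison uses 8 of the 41 samples of the series, taken by their labels: 4 KO libraries and 4 WT libraries, all RNA-seq of mouse embryonic stem cells (ESCs) and all columns of the 4 h table. Every group had been cultured for 4 days in ESC medium that lacked LIF and held 1 µM retinoic acid, and then received 2 µg/ml α-amanitin, which blocks RNA polymerase II. The WT cells were the R1 line, and the KO samples were 2 clones, labelled 2 and 4, with 2 libraries each. The remaining samples are RNA-seq at 0, 2 and 8 h of the drug and immunoprecipitates of CAPRIN1. Each KO clone is a single clone, so what belongs to the clone and what belongs to the loss of Caprin1 cannot be told apart within it. The labels do not say that replicates came from separate cultures, so the p-values measure the spread between these libraries, which may be technical. Total counts per library ran from 3460172 in WT replicate 2 to 10244834 in clone 4 replicate 1.

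The protein CAPRIN1 binds RNA in the cytoplasm and works with G3BP1 and G3BP2 in stress granules, which are assemblies of untranslated mRNA and protein. Retinoic acid binds nuclear receptors that turn on patterning genes such as the Hox genes, and it drives ESCs out of pluripotency into several lineages, among them the extra-embryonic endoderm that lays down a thick basement membrane. Where the block of RNA polymerase II is complete, its RNA that is counted was made earlier and has not yet been degraded. How complete the block was here was not tested. The level of RNA per library is relative, because a loss shared by all transcripts does not show in counts scaled to the library.

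Caprin1 RNA itself (gene ENSMUSG00000027184 of the table, chr2:103762945-103797669 by RefSeq on GRCm38.p6) was measured first, as a check of the labels. It stood at 188 and 183 CPM in clone 2, 1163 and 1193 CPM in clone 4, and 908, 938, 940.0 and 1041 CPM in WT, in CPM, which are counts scaled to the library total and by the TMM method and are used for all levels that follow. The libraries labelled clone 2 lay far below the WT range and those labelled clone 4 lay above all 4 WT libraries, so the KO and WT libraries overlapped. Against WT the log2 fold change was -2.37 in clone 2 (false discovery rate, FDR, 1.83e-21) and 0.30 in clone 4 (FDR 0.000229), and -0.49 for both clones together (SE 0.62, FDR 0.557). The label of clone 4 is thus not borne out by its Caprin1 RNA. The RNA level alone cannot refute the label either, because how the knockout was made is not given in the sources used here. Protein was not measured in these files. Every direction given for KO below rests on 2 libraries labelled clone 4 in which Caprin1 RNA was not reduced, and values for the clones are therefore given side by side.

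**Figure D1:**
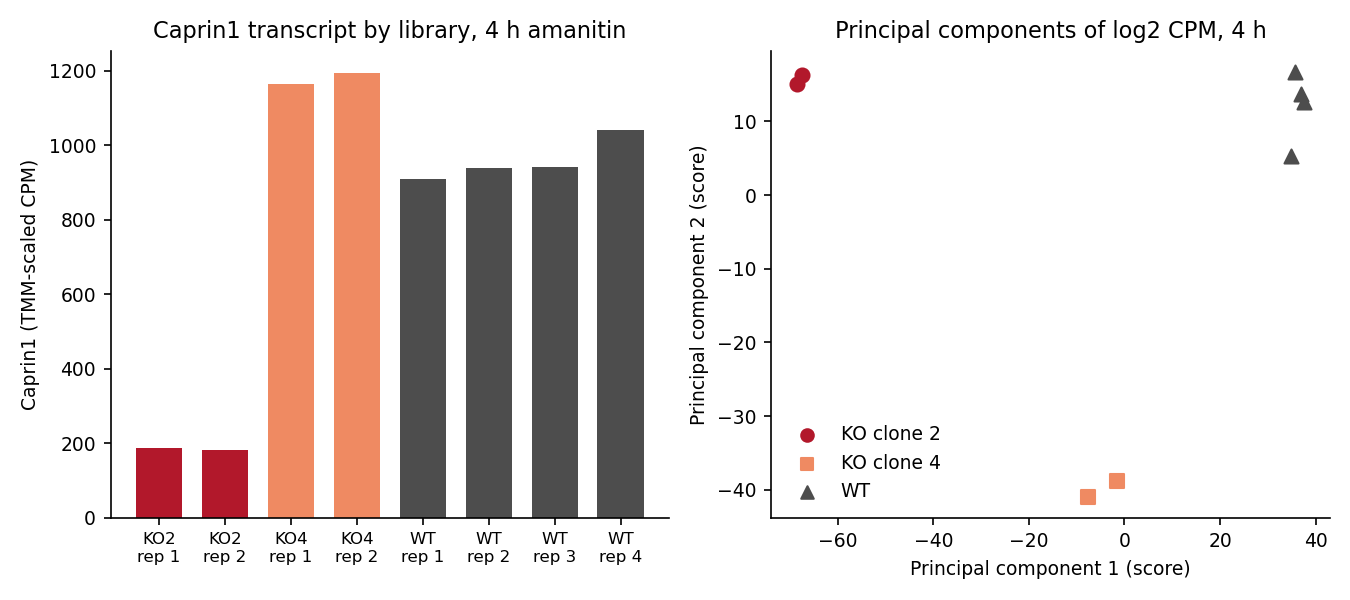
Left, Caprin1 level (TMM-scaled CPM) in each of the 8 libraries as bars; right, the scores of the libraries on the first principal components of log2 CPM, which held 67.1% and 19.9% of the variance. Clone 2 (KO2) has low Caprin1 and sits far from WT on component 1, while the libraries labelled clone 4 (KO4) have Caprin1 at or above the WT level, lie between clone 2 and WT on component 1 and apart from both on component 2.

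On principal component 1 (67.1% of the variance) clone 2 scored -67.4 and -68.5, the libraries labelled clone 4 -1.5 and -7.62, and WT between 34.9 and 37.6. On component 2 (19.9%) the libraries labelled clone 4 stood alone, at -38.8 and -40.9. WT replicate 1 differed from the rest of its group in 6 transcripts of at least 5 CPM that were over 4 times the median of the other 3, led by the gene listed as CT010467.1 (14345 against 550, 636 and 1072 CPM) and by Lars2 (1016 against 98.8, 113 and 116 CPM). The ESC markers Pou5f1, Nanog, Sox2, Zfp42, Lin28a and Dppa5a were detected in all 8 libraries. Genes of differentiated cells were detected too, some at far higher levels. In WT at 4 h, scaled over all 31 libraries, the basement membrane gene Lama1 had a mean of 3160 CPM. Nanog had 39.9 and Sox2 66.8 CPM. Detection of ESC markers thus does not show which cell types the libraries held. Of blood and immune markers, Ptprc had 1 count in 1 library and none in the other 7, Cd52 at most 2 and Cd3e at most 7 counts, while Csf1r had 7 to 62. At 4 h, 56 of 6871 well-counted genes (at least 20 CPM at each other time in both genotypes) lay over 4 times below their level at every other time in KO and WT alike. Of these, 36 were cytosolic ribosomal protein genes, and Gapdh and Actg1 were also among them. These are families with many near-identical copies, their counts depend on how reads with several matches were assigned, and their values are uncertain here.

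At 4 h, 4836 of 13324 genes tested (36.3%) differed between KO and WT at an FDR under 0.05, of which 2579 (19.4%) were higher and 2257 (16.9%) lower in KO. The fit behind these calls counts the 4 KO libraries as separate although they come from 2 clones. Its FDRs thus do not measure the spread over independent knockout clones. All 4 KO libraries lay above all 4 WT libraries for 2662 genes (20%) and below them for 2628 (19.7%). Taken by clone, against the same 4 WT libraries, 8697 of 14039 genes (61.9%) differed in clone 2, 31.1% higher and 30.8% lower. In the libraries labelled clone 4 it was 6614 (47.1%), 24.6% higher and 22.5% lower. Between the clones themselves 6688 genes (47.6%) differed, 24.8% higher and 22.9% lower in clone 4. Without WT replicate 1 the number called between KO and WT was 3124 and without WT replicate 3 it was 3069, and with clone 2 as the only KO it was 8552. With same-numbered libraries as blocks in the fit it was 0.

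Among the 12 largest increases that held in every library were secreted growth and inflammatory factors. Fgf7, a growth factor made by mesenchymal cells, stood at 11.3 and 12.6 CPM in clone 2, 35.5 and 37.1 CPM in clone 4, and 1.36, 0.825, 1.69 and 1.64 CPM in WT. In Fgf7 no KO library entered the WT range, and the level rose, more so in clone 4 (log2 fold change 4.04, SE 0.52, FDR 0.00149). Ereg, the EGF-family ligand epiregulin, stood at 14.8 and 16.9 CPM in clone 2, 84 and 95 CPM in clone 4, and 3.82, 2.75, 2.65 and 3.59 CPM in WT. Ereg rose in KO without overlap, more so in clone 4 (log2 fold change 4.01, SE 0.73, FDR 0.00513). Il1rl1, the receptor of interleukin-33, stood at 6.01 and 5.77 CPM in clone 2, 16.6 and 17.2 CPM in clone 4, and 0.616, 0.825, 0.843 and 0.513 CPM in WT. Il1rl1 lay above WT in all 4 KO libraries, more so in clone 4 (log2 fold change 4.05, SE 0.52, FDR 0.00136). The chemokine gene Ccl7 followed the same order, with 10.7 and 8.45 CPM in clone 2, 40.4 and 38.8 CPM in clone 4, and 2.59, 1.38, 1.81 and 1.64 CPM in WT. In Ccl7 no KO library entered the WT range, and the level rose, more so in clone 4 (log2 fold change 3.69, SE 0.63, FDR 0.00412). Ifit1, an interferon-induced protein that binds viral RNA, stood at 11 and 11.9 CPM in clone 2, 16.4 and 23 CPM in clone 4, and 0.863, 1.38, 0.843 and 1.23 CPM in WT. Ifit1 rose in KO without overlap, more so in clone 4 (log2 fold change 3.88, SE 0.32, FDR 0.000247). Lgals3bp, a secreted glycoprotein that interferon induces, stood at 22.3 and 20.8 CPM in clone 2, 30.3 and 29.97 CPM in clone 4, and 2.71, 2.75, 2.41 and 2.26 CPM in WT. Lgals3bp lay above WT in all 4 KO libraries, more so in clone 4 (log2 fold change 3.36, SE 0.18, FDR 4.09e-05). That KO and WT do not overlap is part of the rule that named these genes.

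Mmp13, a collagenase, led by fitted fold, but its WT libraries had 1, 0, 1 and 1 counts. Its KO libraries had 23 and 27 counts in clone 2 and 113 and 228 in clone 4, and the ratio of counts per library total between KO and WT was 109 (95% exact interval 36.9 to 529, counting error only). The membrane-linked genes Cavin2 (3.52), a coat protein of caveolae, Tm4sf1 (3.28) and Apbb1ip (3.62), an adaptor for integrin activation, rose most in the libraries labelled clone 4, where Cavin2 had 46 and 51 CPM against 6.87 and 7.51 in clone 2 and 2.1, 1.38, 2.29 and 3.38 in WT. A pair of genes rested largely on 1 clone. Ptk6, a cytoplasmic tyrosine kinase, had 24.3 and 22.7 CPM in clone 2, 2.18 and 2.03 CPM in clone 4, and 1.73, 0.550, 0.723 and 1.03 CPM in WT, a log2 fold change of 4.43 in clone 2 and 0.97 in clone 4. Ppbp, a platelet chemokine, had 1.84 and 2.01 CPM in clone 2, 19.4 and 17.7 CPM in clone 4, and 0.863, 0.825, 1.08 and 1.23 CPM in WT, with 0.88 and 4.14. The call of Ptk6 was lost when any 1 of the clone 2 or WT libraries was left out, and that of Ppbp without clone 4 replicate 1 or any 1 WT library.

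**Figure D2:**
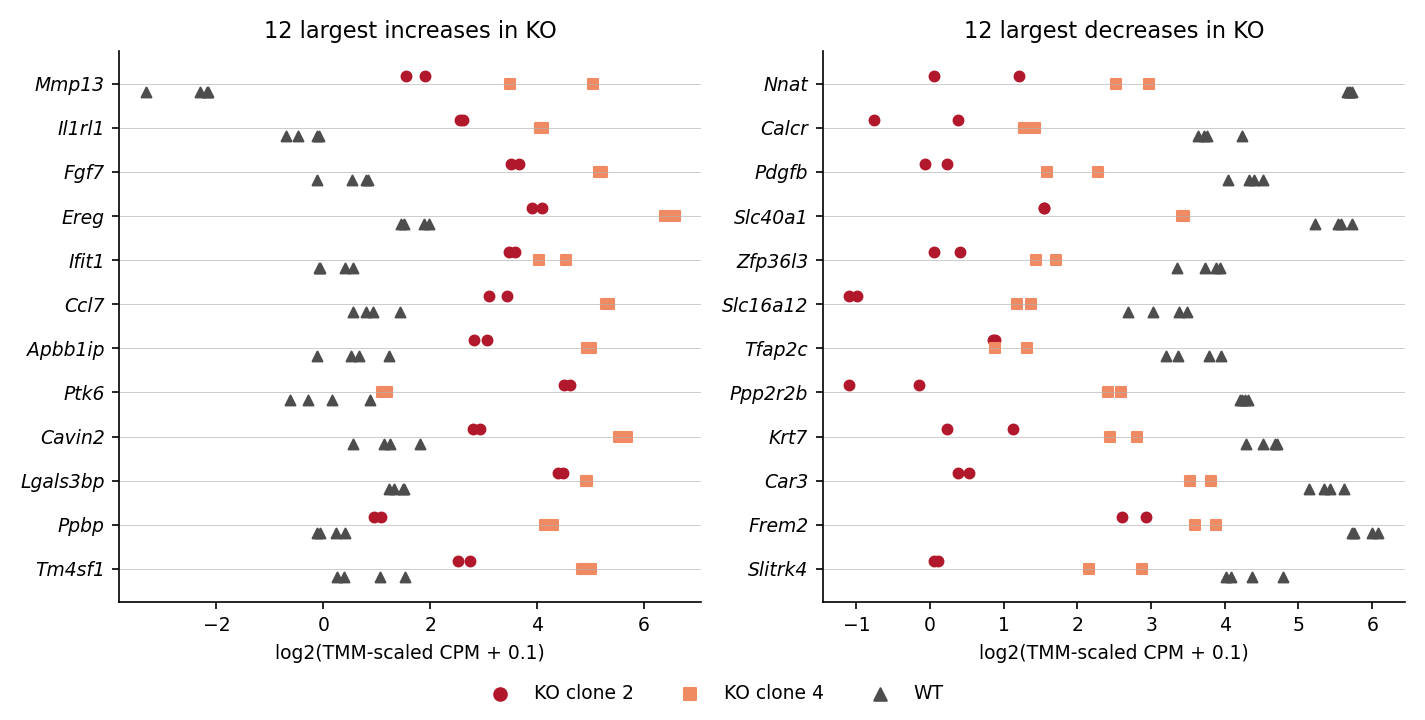
Level of the 12 genes with the largest increase (left) and the 12 with the largest decrease (right) in KO, as log2(TMM-scaled CPM + 0.1), 1 point per library, among called genes of at least 5 CPM on average whose KO and WT libraries did not overlap. WT libraries (triangles) lie apart from all KO libraries in each row, by the rule that chose the genes; in the right panel clone 2 (circles) lies on average farther from WT than clone 4 (squares) in every gene, least so in Tfap2c.

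The largest decreases included imprinted, extra-embryonic and transport genes. Nnat, an imprinted membrane proteolipid (chr2:157560078-157562525), stood at 2.21 and 0.939 CPM in clone 2, 7.73 and 5.65 CPM in clone 4, and 50.2, 52, 52.7 and 51.3 CPM in WT. In Nnat no KO library entered the WT range, and the level fell, more so in clone 2 (log2 fold change -3.61, SE 0.46, FDR 0.00147). Calcr, the calcitonin receptor, stood at 0.490 and 1.21 CPM in clone 2, 2.58 and 2.32 CPM in clone 4, and 13.1, 13.5, 12.3 and 18.8 CPM in WT. Calcr fell in KO without overlap, more so in clone 2 (log2 fold change -3.1, SE 0.38, FDR 0.00104). Tfap2c, a transcription factor of trophoblast and germ cells, stood at 1.72 and 1.74 CPM in clone 2, 2.38 and 1.74 CPM in clone 4, and 15.3, 10.2, 13.7 and 9.12 CPM in WT. Tfap2c lay below WT in all 4 KO libraries, with no difference called between the clones (log2 fold change -2.66, SE 0.23, FDR 0.000271). Krt7, a keratin of simple epithelia and trophoblast, stood at 2.08 and 1.07 CPM in clone 2, 6.94 and 5.36 CPM in clone 4, and 25.6, 22.8, 26 and 19.4 CPM in WT. In Krt7 no KO library entered the WT range, and the level fell, more so in clone 2 (log2 fold change -2.57, SE 0.45, FDR 0.00435). Slc40a1, the iron exporter ferroportin, stood at 2.82 and 2.82 CPM in clone 2, 10.8 and 10.6 CPM in clone 4, and 46.5, 37.1, 47.4 and 52.6 CPM in WT. Slc40a1 fell in KO without overlap, more so in clone 2 (log2 fold change -2.76, SE 0.44, FDR 0.00301), and Pdgfb (-3.01), the platelet-derived growth factor B chain, and Frem2 (-2.56), an extracellular matrix protein, lay in the same range. Car3, a carbonic anhydrase, showed the widest gap between clones among these, with 1.35 and 1.21 CPM in clone 2, 14 and 11.4 in clone 4 and 42.9, 35.2, 40.7 and 48.8 in WT. The other genes of this group were Zfp36l3 (-2.7), a tristetraprolin-family protein that promotes mRNA decay, Slc16a12 (-2.7), Ppp2r2b (-2.61) and Slitrk4 (-2.55).

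A set of 28 gene lists was chosen with earlier results of these data known, so the counts of their members are a description and not a test. The members were read against all genes tested, of which 19.4% were called higher and 16.9% lower. The median log2 fold change over all genes tested was 0.01. The endoderm lists lay above these values. Of 11 endoderm transcription factors 10 were higher, none lower, and the median was 1.33. Sox7, one of the first factors of extra-embryonic endoderm, stood at 326 and 318 CPM in clone 2, 157 and 173 CPM in clone 4, and 54.2, 73.5, 65.2 and 60.4 CPM in WT. Sox7 lay above WT in all 4 KO libraries, more so in clone 2 (log2 fold change 1.95, SE 0.26, FDR 0.0018). Gata6, which drives cells to primitive endoderm, stood at 604 and 584 CPM in clone 2, 292 and 328 CPM in clone 4, and 212, 229.7, 197 and 205 CPM in WT. In Gata6 no KO library entered the WT range, and the level rose, more so in clone 2 (log2 fold change 1.1, SE 0.24, FDR 0.0105). Clone 4 lay between clone 2 and WT in both. Gata4 (1.33) and Sox17 (1.44) were called as well. The call of Gata4 was lost without either clone 2 library or WT replicate 1, 3 or 4, and that of Sox17 without any 1 clone 2 or WT library. The number of called factors was 4 without WT replicate 1 or 3, 5 without WT replicate 4 or either clone 2 library, and 6 without WT replicate 2. Taken by clone it was 11 in clone 2 and 8 in the libraries labelled clone 4, with medians of 1.88 and 0.53.

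The products of parietal endoderm followed. Of 17 basement membrane genes and the enzymes that fold and modify their collagen, 12 were higher and 1 lower (median 1.16). The 3 chains of laminin-111 rose together. Lama1 stood at 12903 and 13813 CPM in clone 2, 5313 and 6119 CPM in clone 4, and 2682, 3449, 3124 and 3066 CPM in WT. Lama1 rose in KO without overlap, more so in clone 2 (log2 fold change 1.63, SE 0.32, FDR 0.00677). Lamb1 stood at 8839 and 9199 CPM in clone 2, 3889 and 4407 CPM in clone 4, and 2061, 2488, 2242 and 2248 CPM in WT. Lamb1 lay above WT in all 4 KO libraries, more so in clone 2 (log2 fold change 1.54, SE 0.29, FDR 0.00559). Lamc1 stood at 11248 and 11921 CPM in clone 2, 5272 and 5927 CPM in clone 4, and 2702, 3344, 3145 and 3086 CPM in WT. In Lamc1 no KO library entered the WT range, and the level rose, more so in clone 2 (log2 fold change 1.49, SE 0.27, FDR 0.00515). The summed level of the list was 88420 and 91530 CPM in clone 2, 38560 and 42830 in the libraries labelled clone 4 and 24800 to 29090 in WT, with no overlap between the groups. Collagen IV chain Col4a2 rose by 1.55 (SE 0.36, FDR 0.0122), and Col4a1 by 1.48, a call that was lost without WT replicate 1. The collagen chaperone Serpinh1 (1.16), the prolyl hydroxylase P4ha1 (1.12) and the lysyl hydroxylase Plod2 (1.17) rose with them. Lama5, the chain of a different laminin, fell, from 443, 458, 532 and 449 CPM in WT to 128 and 123 in clone 2 and 223 and 191 in clone 4 (log2 fold change -1.5, SE 0.20, FDR 0.00147). In bulk libraries, more cells of a type and more RNA per cell cannot be told apart.

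Of 21 endoderm receptors and secreted proteins 12 were higher and 3 lower (median 0.98). Thrombomodulin, Thbd, a surface marker of parietal endoderm, stood at 53.9 and 54.3 CPM in clone 2, 41 and 43.1 CPM in clone 4, and 7.03, 8.53, 7.71 and 7.48 CPM in WT. Thbd rose in KO without overlap, more so in clone 2 (log2 fold change 2.65, SE 0.13, FDR 3.99e-05). Pdgfra, a receptor of primitive endoderm, stood at 596 and 592 CPM in clone 2, 257 and 308 CPM in clone 4, and 129.8, 154, 134 and 137 CPM in WT. Pdgfra lay above WT in all 4 KO libraries, more so in clone 2 (log2 fold change 1.66, SE 0.28, FDR 0.00393). Srgn, a granule proteoglycan, stood at 695 and 697 CPM in clone 2, 199.5 and 236 CPM in clone 4, and 100.2, 114, 96.1 and 109 CPM in WT. In Srgn no KO library entered the WT range, and the level rose, more so in clone 2 (log2 fold change 2.13, SE 0.43, FDR 0.0075). The endocytic adaptor Dab2 (0.98) and the receptor pair Cubn (1.21) and Amn (1.72), which takes up proteins in visceral endoderm, also rose, as did Ttr (2.12), a carrier of thyroid hormone. The 3 that fell were the simple-epithelium keratins Krt19 (-1.63), Krt18 (-1.1) and Krt8 (-0.44).

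**Figure D3:**
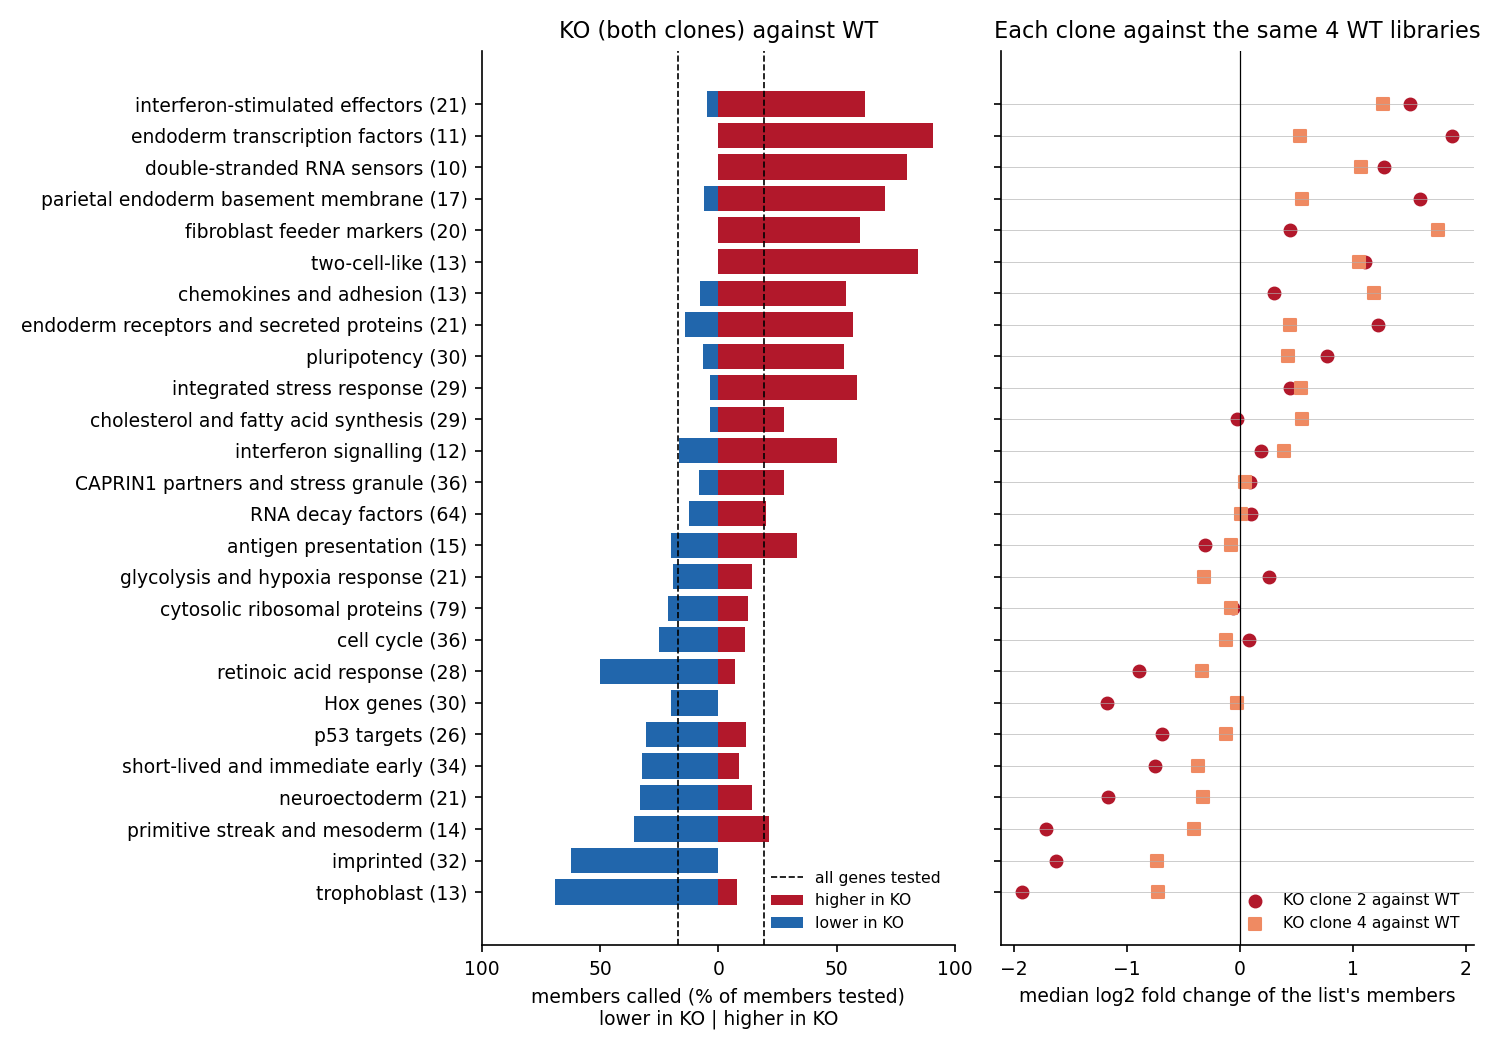
Left, percent of each list's tested members called higher (red, to the right) or lower (blue, to the left) in KO at an FDR under 0.05, with dashed lines at the shares over all genes tested (19.4% and 16.9%); the number tested stands in brackets. Right, median log2 fold change of the same members in clone 2 (circles) and clone 4 (squares), each against the same 4 WT libraries: trophoblast and imprinted lists lie below 0 and endoderm, interferon and two-cell-like lists above 0 in both clones, while the Hox median lies below 0 in clone 2 and near 0 in clone 4.

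Pluripotency genes were more often higher than lower. Of 30 tested, 16 were higher and 2 lower (median 0.58), 11 and 0 without WT replicate 1. Pou5f1, the core factor OCT4, stood at 117 and 109 CPM in clone 2, 98.1 and 117 CPM in clone 4, and 68.1, 80.9, 68.2 and 61.1 CPM in WT. Pou5f1 rose in KO without overlap, with no difference called between the clones (log2 fold change 0.67, SE 0.10, FDR 0.00201). Zfp42, known as REX1, stood at 50.02 and 51.5 CPM in clone 2, 43.2 and 47.2 CPM in clone 4, and 30.8, 38, 33 and 29.8 CPM in WT. Zfp42 lay above WT in all 4 KO libraries, with no difference called between the clones (log2 fold change 0.55, SE 0.10, FDR 0.00419). Nanog gave 41.8 and 38.9 CPM in clone 2, 41.9 and 42.7 CPM in clone 4, and 39.3, 46.2, 36.6 and 33.5 CPM in WT (FDR 0.492) and Sox2 gave 52.4 and 58.7 CPM in clone 2, 72.8 and 76.5 CPM in clone 4, and 61.6, 59.98, 67.3 and 71.5 CPM in WT (FDR 0.99), with overlapping groups. Fbxo15, an F-box gene long used as an ESC marker, had 126 and 134 CPM in clone 2, 72.5 and 92.8 CPM in clone 4, and 37.5, 32.2, 32.8 and 34.3 CPM in WT. In Fbxo15 no KO library entered the WT range, and the level rose, more so in clone 2 (log2 fold change 1.63, SE 0.19, FDR 0.000926). The largest difference was in Klf5, with 1911 and 1849 CPM in clone 2, 541 and 569 CPM in clone 4, and 351, 371, 372 and 369 CPM in WT. Klf5 rose in KO without overlap, more so in clone 2 (log2 fold change 1.73, SE 0.44, FDR 0.0174), a call lost without WT replicate 1. The members that rose most also included Tcl1 (1.41), L1td1 (1.37) and the Nodal-pathway genes Lefty2 (1.24) and Tdgf1 (1.22), while Nodal itself fell by 0.54, a call that was lost without either clone 2 library or WT replicate 1, 2 or 3.

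Genes of the two-cell-like state, a rare transcriptional state of ESC cultures that resembles the embryo after its first division, were low in CPM and higher in KO: 11 of 13 were called higher and none lower (median 1.11). Zscan4c, a telomere-associated zinc finger gene, stood at 8.58 and 5.77 CPM in clone 2, 6.44 and 8.83 CPM in clone 4, and 3.08, 3.58, 3.01 and 3.59 CPM in WT. Zscan4c lay above WT in all 4 KO libraries, with no difference called between the clones (log2 fold change 1.16, SE 0.19, FDR 0.00305). Tmem92 stood at 11.3 and 11.9 CPM in clone 2, 8.52 and 11.9 CPM in clone 4, and 2.22, 2.2, 2.65 and 2.77 CPM in WT. In Tmem92 no KO library entered the WT range, and the level rose, with no difference called between the clones (log2 fold change 2.12, SE 0.17, FDR 0.000247). The summed level of the list was 74.5 to 97.6 CPM in the KO libraries and 39.2 to 41.2 in WT, so that the groups did not overlap while the clones did. The Zscan4 and Usp17l families consist of near-identical copies, so the split of reads among members is uncertain.

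Interferon genes were more often higher than lower. Type I interferon acts through the receptor chains Ifnar1 and Ifnar2 on STAT2 and IRF9, which switch on effectors and the sensors of double-stranded RNA. In the signalling list 6 of 12 were higher and 2 lower (median 0.26). The receptor chain Ifnar1 had 109 and 118 CPM in clone 2, 105 and 98.5 CPM in clone 4, and 103, 102, 109.6 and 108 CPM in WT (FDR 0.778), with the groups overlapping. Irf7 stood at 5.15 and 4.56 CPM in clone 2, 7.14 and 5.5 CPM in clone 4, and 0.863, 2.2, 0.843 and 1.13 CPM in WT. Irf7 rose in KO without overlap, with no difference called between the clones (log2 fold change 2.28, SE 0.30, FDR 0.00133). Usp18, which is induced by interferon and damps its receptor, stood at 7.6 and 8.98 CPM in clone 2, 9.32 and 9.7 CPM in clone 4, and 0.740, 1.38, 0.482 and 0.513 CPM in WT. Usp18 lay above WT in all 4 KO libraries, with no difference called between the clones (log2 fold change 3.66, SE 0.27, FDR 0.000163). Socs1, another inhibitor, moved the other way, with 6.38 and 6.57 CPM in clone 2, 8.92 and 6.52 CPM in clone 4, and 11.7, 10.5, 11.1 and 12.4 CPM in WT. In Socs1 no KO library entered the WT range, and the level fell, with no difference called between the clones (log2 fold change -0.68, SE 0.15, FDR 0.00882).

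Of 10 sensors of double-stranded RNA 8 were higher and none lower (median 1.25). Ddx58, which encodes RIG-I, stood at 32.6 and 36.2 CPM in clone 2, 34.8 and 39.7 CPM in clone 4, and 13.4, 12.7, 12.4 and 16.2 CPM in WT. Ddx58 rose in KO without overlap, with no difference called between the clones (log2 fold change 1.38, SE 0.11, FDR 0.000247). Ifih1, which encodes MDA5, stood at 8.09 and 6.57 CPM in clone 2, 11.8 and 13.9 CPM in clone 4, and 2.59, 1.65, 2.89 and 1.95 CPM in WT. Ifih1 lay above WT in all 4 KO libraries, more so in clone 4 (log2 fold change 2.11, SE 0.29, FDR 0.00157). Eif2ak2, the kinase PKR, stood at 98.2 and 103 CPM in clone 2, 77.9 and 88.8 CPM in clone 4, and 42.5, 39.6, 37.8 and 48.7 CPM in WT. In Eif2ak2 no KO library entered the WT range, and the level rose, more so in clone 2 (log2 fold change 1.12, SE 0.11, FDR 0.000544). Oas1a had 102 counts over the KO libraries and 7 over the WT libraries, a ratio of counts per library total of 12.1 (95% exact interval 5.68 to 31.0, counting error only). Adar, which edits double-stranded RNA, had 49 and 51.2 CPM in clone 2, 47 and 38.8 CPM in clone 4, and 34.3, 39.1, 35.6 and 36 CPM in WT. Adar rose on average although single libraries overlapped (log2 fold change 0.36, SE 0.10, FDR 0.021), a call that was lost without clone 2 replicate 2, WT replicate 1 or WT replicate 3. Of 21 effectors 13 were higher and 1 lower (median 1.49). Isg15, a ubiquitin-like modifier, stood at 3.8 and 4.69 CPM in clone 2, 8.92 and 6.08 CPM in clone 4, and 0.740, 1.65, 0.361 and 0.513 CPM in WT. Isg15 lay above WT in all 4 KO libraries, more so in clone 4 (log2 fold change 3.06, SE 0.44, FDR 0.00182). Bst2, the tether that holds budding viruses, stood at 40.6 and 35.7 CPM in clone 2, 25.4 and 22 CPM in clone 4, and 9.86, 7.7, 9.51 and 11.3 CPM in WT. In Bst2 no KO library entered the WT range, and the level rose, more so in clone 2 (log2 fold change 1.67, SE 0.21, FDR 0.00127). Among the other members Xaf1 (2.93), Ifi27 (3.14), Parp14 (2.16) and Rsad2 (2.16) rose. Taken by clone, 13 effectors were higher and 4 lower in clone 2, and 17 higher and 1 lower in the libraries labelled clone 4, with medians of 1.5 and 1.27.

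The interferon-stimulated response element, written here as GAAANNGAAA, is the site at which the complex of STAT2 and IRF9 and other IRF proteins bind. Of the 4 sensors and effectors that rose and hold more than 1 copy of these letters, the promoters of the 3 that rose most are shown, and Bst2 is the other. Copies are in capitals, on either strand (the other strand reads TTTCNNTTTC), and may overlap. Each sequence runs from 250 bases before to 50 after the gene's start, 5′ to 3′ on the gene's strand, from RefSeq on GRCm38.p6.
Ifit1, chr19:34640639-34640938, plus strand: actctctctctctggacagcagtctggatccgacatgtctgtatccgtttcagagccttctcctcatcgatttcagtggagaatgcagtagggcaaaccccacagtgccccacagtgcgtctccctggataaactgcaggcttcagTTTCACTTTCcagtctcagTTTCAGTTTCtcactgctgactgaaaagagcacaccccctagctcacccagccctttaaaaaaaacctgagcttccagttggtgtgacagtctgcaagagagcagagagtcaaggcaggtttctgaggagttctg
Isg15, chr4:156200769-156201068, minus strand: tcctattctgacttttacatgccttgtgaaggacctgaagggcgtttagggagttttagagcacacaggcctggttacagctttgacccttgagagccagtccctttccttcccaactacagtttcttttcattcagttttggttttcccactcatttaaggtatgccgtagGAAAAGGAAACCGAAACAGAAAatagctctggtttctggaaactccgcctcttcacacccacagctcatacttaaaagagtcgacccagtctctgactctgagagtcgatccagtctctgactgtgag
Oas1a, chr5:120907476-120907775, minus strand: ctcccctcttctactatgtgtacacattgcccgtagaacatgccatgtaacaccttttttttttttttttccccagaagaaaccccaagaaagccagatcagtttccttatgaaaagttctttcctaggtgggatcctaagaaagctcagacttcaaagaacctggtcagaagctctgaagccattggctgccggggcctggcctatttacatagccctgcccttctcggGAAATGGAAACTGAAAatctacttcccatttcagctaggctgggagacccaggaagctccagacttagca
The element was found in promoters of 4 of the 6 sensors that rose and have a promoter in the table (Ddx58, Eif2ak2, Ifih1 and Oas1a), and of 4 of the 10 effectors that rose (Bst2, Ifit1, Isg15 and Rsad2). It was also found in the 1 effector that was lower, Ifitm2, and in 3 of the 7 effectors that were not called, namely Gbp2, Gbp3 and Ifitm3. In the signalling list 1 of the 4 genes that rose and have a promoter in the table held it (Stat2), and so did Socs1, which fell, with 2 copies. Over all 32851 promoters of the same length in the table, 3.44% held it, and of the tested genes with a promoter 3.4% did. A match is a description of the letters and not a site shown to be bound.

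Of 15 genes of antigen presentation 5 were higher and 3 lower (median 0.06), while both clone medians were below 0, at -0.31 in clone 2 and -0.08 in clone 4. B2m, the light chain of MHC class I, stood at 231 and 229 CPM in clone 2, 225 and 221 CPM in clone 4, and 109, 105, 101 and 111 CPM in WT. B2m rose in KO without overlap, with no difference called between the clones (log2 fold change 1.09, SE 0.06, FDR 3.99e-05). The heavy chain H2-D1 stood at 121 and 117 CPM in clone 2, 107 and 98.6 CPM in clone 4, and 56.3, 51.2, 59.5 and 52.3 CPM in WT. H2-D1 lay above WT in all 4 KO libraries, more so in clone 2 (log2 fold change 1.02, SE 0.09, FDR 0.000271). The peptide transporter Tap1 and the proteasome activator subunit Psme2, which interferon can induce, fell by 0.54 and 0.52, the second a call that was lost without WT replicate 1 or 3. With either of these libraries left out 5 genes of the list were called. Psme2 had a lower mean at 4 h than at 2 h and 8 h in both genotypes, scaled over all 31 libraries. KO had 31.1, 11.3 and 28.3 CPM at 2, 4 and 8 h, and WT 36.5, 16.0 and 27.1. The part of read assignment in its 4 h values was not tested. Of 13 chemokine and adhesion genes 7 were higher and 1 lower (median 1.04). In clone 2 the counts were 6 higher and 5 lower (median 0.30), and in the libraries labelled clone 4 they were 9 higher and 1 lower (median 1.19). Ccl2, which attracts monocytes, stood at 18.9 and 21.6 CPM in clone 2, 84.3 and 71.2 CPM in clone 4, and 5.42, 5.23, 5.42 and 4.51 CPM in WT. In Ccl2 no KO library entered the WT range, and the level rose, more so in clone 4 (log2 fold change 3.26, SE 0.55, FDR 0.00396). Vcam1, an adhesion molecule, stood at 7.36 and 9.79 CPM in clone 2, 25.7 and 25.9 CPM in clone 4, and 3.08, 2.2, 2.17 and 2.77 CPM in WT. Vcam1 rose in KO without overlap, more so in clone 4 (log2 fold change 2.72, SE 0.47, FDR 0.00406).

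Markers of fibroblasts, from which feeder layers are made, were counted because such cells could be present. Of 20 tested, 12 were higher and none lower (median 1.14), and without WT replicate 1 or WT replicate 3 the number was 7. Their summed level was 1764 and 1768 CPM in clone 2, 6397 and 6681 in the libraries labelled clone 4, and 2539 to 2677 in WT, so that clone 2 lay below WT and clone 4 above. Col1a1, a chain of collagen I, stood at 307 and 309 CPM in clone 2, 1169 and 1137 CPM in clone 4, and 482, 559, 508 and 486 CPM in WT (log2 fold change -0.72 in clone 2 and 1.18 in clone 4). Col3a1 stood at 40.5 and 37 CPM in clone 2, 226 and 216 CPM in clone 4, and 292, 305, 282 and 322 CPM in WT, and Dcn, decorin, at 12.1 and 12.2 CPM in clone 2, 29.7 and 36.8 CPM in clone 4, and 7.4, 7.43, 7.35 and 10.05 CPM in WT. Taken by clone, 11 were higher and 6 lower in clone 2, and 17 higher and 2 lower in clone 4. Fap, a serine protease of activated fibroblasts, had 188 counts over the KO libraries and 5 over the WT libraries, a ratio of 31.3 (95% exact interval 13.2 to 97.6, counting error only). None of the key markers Col1a1, Col1a2, Col3a1 and Dcn was at 0 in any library. Fgf7, Ereg, Ccl2, Ccl7, Vcam1 and Cavin2 had clone 4 above clone 2, as in the summed level of this list. The place of WT differed: clone 2 lay above WT in these genes and below it in the sum. The part of fibroblasts in the values of these genes was not tested.

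Trophoblast genes were mostly lower. Of 13 tested 9 were lower and 1 higher (median -1.26). Besides Tfap2c and Krt7, Gata3, a trophoblast transcription factor, stood at 16.9 and 15.6 CPM in clone 2, 28.3 and 25.2 CPM in clone 4, and 44.6, 47.9, 45.5 and 42 CPM in WT. Gata3 lay below WT in all 4 KO libraries, more so in clone 2 (log2 fold change -1.06, SE 0.19, FDR 0.00399). Sct, the hormone secretin, stood at 0.736 and 0.804 CPM in clone 2, 1.59 and 1.16 CPM in clone 4, and 5.3, 4.13, 4.34 and 3.79 CPM in WT. In Sct no KO library entered the WT range, and the level fell, with no difference called between the clones (log2 fold change -2.0, SE 0.27, FDR 0.00147). The placental homeobox genes Rhox9 (-2.0) and Rhox6 (-1.11) and the factor Gata2 (-1.7) fell too. The member that rose was Tead4, a factor of early trophectoderm that other embryonic cells also express, at 104 and 117 CPM in clone 2, 62.5 and 68.5 CPM in clone 4, and 38.2, 41, 44.7 and 35.7 CPM in WT. Tead4 rose in KO without overlap, more so in clone 2 (log2 fold change 1.14, SE 0.20, FDR 0.00459). Elf5, a marker of trophoblast stem cells, had at most 2 counts in any of the 8 libraries, and the summed level of the list was 162 to 179 CPM in KO and 229.6 to 274 in WT.

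Imprinted genes, which are expressed from 1 parental copy, were mostly lower: of 32 tested 20 were lower and none higher (median -1.06). H19 and Igf2, neighbours on chromosome 7 that are expressed from opposite parental copies, fell together. H19 stood at 114 and 119 CPM in clone 2, 86.9 and 105 CPM in clone 4, and 367, 367, 338 and 341 CPM in WT. H19 lay below WT in all 4 KO libraries, more so in clone 4 (log2 fold change -1.73, SE 0.10, FDR 5.42e-05). Igf2 stood at 46.2 and 52 CPM in clone 2, 53.9 and 56.9 CPM in clone 4, and 146, 149, 153 and 133 CPM in WT. In Igf2 no KO library entered the WT range, and the level fell, with no difference called between the clones (log2 fold change -1.48, SE 0.08, FDR 4.29e-05). On chromosome 12, Dlk1 stood at 39 and 35.5 CPM in clone 2, 127 and 109 CPM in clone 4, and 315, 334, 316 and 294 CPM in WT. Dlk1 fell in KO without overlap, more so in clone 2 (log2 fold change -2.02, SE 0.41, FDR 0.00802). Meg3, a long non-coding RNA expressed from the other parental copy of the same region, stood at 115 and 96.9 CPM in clone 2, 161 and 145 CPM in clone 4, and 384, 355, 354 and 317 CPM in WT. Meg3 lay below WT in all 4 KO libraries, more so in clone 2 (log2 fold change -1.44, SE 0.15, FDR 0.000615). The neighbouring RNAs Rian (-1.39) and Mirg (-1.2) and the retrotransposon-derived gene Rtl1 (-2.0) fell as well, the last a call that was lost without WT replicate 1. Cdkn1c, an inhibitor of the cell cycle, stood at 22.6 and 23.1 CPM in clone 2, 30.03 and 28.2 CPM in clone 4, and 64.2, 61.9, 61.7 and 64.1 CPM in WT. In Cdkn1c no KO library entered the WT range, and the level fell, more so in clone 2 (log2 fold change -1.28, SE 0.10, FDR 0.000247). Peg3, a zinc finger gene, stood at 886 and 928 CPM in clone 2, 1445 and 1343 CPM in clone 4, and 2021, 2329, 2437 and 2606 CPM in WT. Peg3 fell in KO without overlap, more so in clone 2 (log2 fold change -1.03, SE 0.17, FDR 0.00327). Members that did not pass the test included Igf2r (0.02), Ube3a (0.24), Impact (0.11) and Kcnq1ot1 (-0.16). Taken by clone, 27 were lower and 3 higher in clone 2 and 24 lower and 1 higher in the libraries labelled clone 4.

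Genes of the retinoic acid list were lower in KO more often than higher, with 14 of 28 lower and 2 higher (median -0.37). The list mixes genes that answer to retinoic acid with receptors and with enzymes of retinoid metabolism. Its counts are thus no measure of how strongly the cells answered, which was not tested. The orphan receptor gene Nr2f1 stood at 3.68 and 2.68 CPM in clone 2, 14.2 and 14.5 CPM in clone 4, and 29.1, 38.2, 32.3 and 32.4 CPM in WT. Nr2f1 lay below WT in all 4 KO libraries, more so in clone 2 (log2 fold change -1.9, SE 0.49, FDR 0.0191). Rec8, a meiotic cohesin, stood at 21.2 and 19.4 CPM in clone 2, 59.7 and 57.9 CPM in clone 4, and 161, 161, 160.3 and 135 CPM in WT. In Rec8 no KO library entered the WT range, and the level fell, more so in clone 2 (log2 fold change -1.96, SE 0.38, FDR 0.00631). Nr2f2 (-1.38), the retinaldehyde dehydrogenase Aldh1a2 (-1.06), the retinol dehydrogenase Rdh10 (-1.13), the receptor Rara (-0.80) and the homeobox cofactor Meis2 (-1.14) fell. An exception was Cyp26a1, which breaks down retinoic acid, at 439 and 455 CPM in clone 2, 152 and 134 CPM in clone 4, and 114, 128, 109 and 118 CPM in WT. Cyp26a1 rose in KO without overlap, more so in clone 2 (log2 fold change 1.33, SE 0.41, FDR 0.0352). Dhrs3, the other exception, which reduces retinaldehyde, stood at 34.8 and 32.7 CPM in clone 2, 33 and 29.97 CPM in clone 4, and 19.5, 18.4, 16.1 and 19.6 CPM in WT. Dhrs3 lay above WT in all 4 KO libraries, with no difference called between the clones (log2 fold change 0.83, SE 0.10, FDR 0.000882). The call of Cyp26a1 was lost when any 1 clone 2 or WT library was left out. The receptor Rarb had 7.72 and 7.64 CPM in clone 2, 17.5 and 15.2 CPM in clone 4, and 12.2, 13.2, 13.8 and 12.6 CPM in WT (FDR 0.791), with clone 2 below and clone 4 above WT. Without WT replicate 1, 2 or 3 the number called in this list was 10.

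Of 30 Hox genes 6 were lower and none higher (median -0.39), and the counts by clone were unlike: 26 were lower in clone 2 and none higher, while 7 were higher and 6 lower in the libraries labelled clone 4, with medians of -1.18 and -0.02. Hoxa2 stood at 1.23 and 1.21 CPM in clone 2, 1.98 and 2.46 CPM in clone 4, and 5.55, 6.33, 6.02 and 4.92 CPM in WT. In Hoxa2 no KO library entered the WT range, and the level fell, with no difference called between the clones (log2 fold change -1.71, SE 0.25, FDR 0.00185). The number of called Hox genes was 2 without WT replicate 2, 3 or 4, 3 without WT replicate 1 or clone 2 replicate 1, and 11 without clone 4 replicate 1.

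Neural and mesodermal genes were more often lower than higher. Of 21 neuroectoderm genes 7 were lower and 3 higher (median -0.65), and of 14 genes of the primitive streak and mesoderm 5 were lower and 3 higher (median -0.85). Sox11, a factor of neural progenitors, stood at 26.5 and 24.5 CPM in clone 2, 98.8 and 102 CPM in clone 4, and 195, 198, 209 and 230.4 CPM in WT. Sox11 fell in KO without overlap, more so in clone 2 (log2 fold change -1.72, SE 0.48, FDR 0.0242), a call that was lost without WT replicate 1, 3 or 4. Nes, the intermediate filament of neural progenitors, stood at 50.9 and 55 CPM in clone 2, 330.0 and 286 CPM in clone 4, and 345, 322, 364 and 350.1 CPM in WT, so that clone 2 lay far below WT and clone 4 overlapped it (-2.71 and -0.16 on the log2 scale). Sox21, which rose in the pooled comparison, did so through clone 2, with 162 and 157 CPM in clone 2, 18.6 and 15.8 CPM in clone 4, and 14.4, 18.7, 15.2 and 16.9 CPM in WT. Sox21 rose on average although single libraries overlapped (log2 fold change 2.44, SE 0.79, FDR 0.0417), and its call was lost without any 1 clone 2 or WT library. Wnt3, a signal of the primitive streak, had 0.736 and 0.268 CPM in clone 2, 5.25 and 4.34 CPM in clone 4, and 12.5, 9.63, 12.9 and 10.4 CPM in WT. In Wnt3 no KO library entered the WT range, and the level fell, more so in clone 2 (log2 fold change -2.07, SE 0.62, FDR 0.0325), a call that was lost without clone 2 replicate 1 or any 1 WT library. Snai1, a repressor of epithelial genes that is also on in parietal endoderm, stood at 110.3 and 105 CPM in clone 2, 38.9 and 41.7 CPM in clone 4, and 24.8, 23.1, 26 and 22.9 CPM in WT. Snai1 rose in KO without overlap, more so in clone 2 (log2 fold change 1.61, SE 0.36, FDR 0.0119). Without WT replicate 1 or 3 the called neuroectoderm genes numbered 4 and without WT replicate 4 they numbered 6, and the called mesoderm genes numbered 5 without WT replicate 1.

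CAPRIN1 partners and stress granule genes showed small differences. Of 36 tested 10 were higher and 3 lower (median 0.09). G3bp1 had 434 and 413 CPM in clone 2, 328 and 335 CPM in clone 4, and 387, 381, 394 and 393 CPM in WT (FDR 0.757). Caprin2, the paralog of Caprin1, stood at 22.2 and 30.03 CPM in clone 2, 19.5 and 17.7 CPM in clone 4, and 22.4, 22.3, 16.5 and 19.9 CPM in WT (FDR 0.546), with the groups overlapping. Fmr1, the fragile X protein, stood at 259 and 279.6 CPM in clone 2, 227 and 245 CPM in clone 4, and 152, 171, 173 and 198 CPM in WT. Fmr1 lay above WT in all 4 KO libraries, with no difference called between the clones (log2 fold change 0.54, SE 0.10, FDR 0.0042). Pabpc4, a poly(A)-binding protein, stood at 139.5 and 141 CPM in clone 2, 114 and 128 CPM in clone 4, and 83, 88.6, 87.7 and 81.3 CPM in WT. In Pabpc4 no KO library entered the WT range, and the level rose, more so in clone 2 (log2 fold change 0.62, SE 0.08, FDR 0.00139).

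RNA decay factors were called at about the rate of all genes, with 13 of 64 higher and 8 lower (median 0.06), and 12 called in all without WT replicate 1 or 3 and 13 without clone 2 replicate 2. By clone there were 28 higher and 11 lower in clone 2, and 13 higher and 15 lower in clone 4. Xrn2, a nuclear exonuclease that degrades RNA from its 5′ end, stood at 243 and 248 CPM in clone 2, 248 and 277 CPM in clone 4, and 210.2, 190.1, 202 and 219 CPM in WT. Xrn2 rose in KO without overlap, with no difference called between the clones (log2 fold change 0.31, SE 0.07, FDR 0.0106). Xrn1, its cytoplasmic counterpart, stood at 111 and 113 CPM in clone 2, 92.3 and 110.5 CPM in clone 4, and 86.2, 93, 101 and 101 CPM in WT (FDR 0.166). The genes for 2 proteins that bind AU-rich elements and hasten decay moved apart. Zfp36l2 stood at 229 and 234 CPM in clone 2, 98.7 and 106 CPM in clone 4, and 61.3, 67.4, 70.8 and 63.3 CPM in WT. Zfp36l2 lay above WT in all 4 KO libraries, more so in clone 2 (log2 fold change 1.34, SE 0.30, FDR 0.0112). Zfp36l1 stood at 156 and 152 CPM in clone 2, 152 and 157 CPM in clone 4, and 187, 206, 204 and 222 CPM in WT. In Zfp36l1 no KO library entered the WT range, and the level fell, with no difference called between the clones (log2 fold change -0.41, SE 0.07, FDR 0.00267). Dis3, the catalytic exonuclease of the exosome, stood at 729 and 793 CPM in clone 2, 157 and 168 CPM in clone 4, and 149.6, 159, 158 and 182 CPM in WT (log2 fold change 1.51, FDR 0.0592). Clone 2 lay far above WT in this gene and clone 4 within the WT range. The nonsense-mediated decay helicase Upf1 had 201 and 179 CPM in clone 2, 155 and 152 CPM in clone 4, and 186, 201, 188 and 171 CPM in WT (FDR 0.375).

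Transcripts known for short half-lives were lower in KO more often than higher: of 34, 11 were lower and 3 higher (median -0.43), and without clone 4 replicate 1 the number called was 22. Fos stood at 5.88 and 4.29 CPM in clone 2, 5.25 and 7.09 CPM in clone 4, and 19.6, 16, 20.2 and 20.2 CPM in WT. Fos fell in KO without overlap, with no difference called between the clones (log2 fold change -1.76, SE 0.17, FDR 0.00039). Egr1 stood at 25.3 and 23.3 CPM in clone 2, 47 and 56.2 CPM in clone 4, and 122, 108, 126 and 104 CPM in WT. Egr1 lay below WT in all 4 KO libraries, more so in clone 2 (log2 fold change -1.6, SE 0.28, FDR 0.00436). Jun stood at 106 and 96.1 CPM in clone 2, 140.1 and 142 CPM in clone 4, and 251, 262, 255 and 240.0 CPM in WT. In Jun no KO library entered the WT range, and the level fell, more so in clone 2 (log2 fold change -1.06, SE 0.13, FDR 0.00106). All 3 are immediate early transcription factors. Id3, an inhibitor of helix-loop-helix factors, stood at 56.6 and 46.4 CPM in clone 2, 61.7 and 54.6 CPM in clone 4, and 116, 124, 119 and 110.2 CPM in WT. Id3 fell in KO without overlap, with no difference called between the clones (log2 fold change -1.1, SE 0.09, FDR 0.000267). Myc had 29.5 and 31.4 CPM in clone 2, 101 and 91.1 CPM in clone 4, and 141, 134, 134 and 119 CPM in WT (log2 fold change -1.06, FDR 0.0693), with clone 2 far below WT and clone 4 below it by less. At 0 h, scaled over all 31 libraries, Fos had means of 4.63 CPM in KO (n = 3) and 8.76 CPM in WT. Egr1 had 9.88 and 13.8, Jun 74.6 and 147, Id3 73.2 and 214.5 and Myc 20.5 and 61.4. These KO means join 2 libraries of clone 2 with 1 of clone 4. In the clone 4 library Fos (5.88), Jun (117), Id3 (90.9) and Myc (44.7) lay below the WT mean. Egr1 did not, at 14.6 CPM against 7.52 in clone 2. At 2 h Egr1 had a mean of 214 CPM in clone 4, 55.2 in clone 2 and 203 in WT. At 8 h it had 16.6, 4.19 and 11.01. The Egr1 mean of clone 4 was thus below WT at 4 h only. From 0 h to 4 h the WT means of Fos, Egr1, Jun and Myc rose, to 19.5, 118, 258.5 and 135 CPM. That of Id3 fell to 120 CPM. Rates of decay were not tested. Of the 83 cytosolic ribosomal protein genes 79 were tested, and 10 were higher and 17 lower (median -0.04), among counts that are uncertain in this table.

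The study's immunoprecipitation of CAPRIN1 gave a pair of gene lists of symbols only, with no direction. The authors named one CNT vs RA, the other 2I vs RA. Of 2096 tested genes in the first, 665 were higher and 312 lower (median 0.12), and of 2362 in the second, 586 were higher and 442 lower (median 0.05). Of 10159 tested genes in neither list 1750 were higher and 1698 lower (median -0.01). Without WT replicate 1 the counts higher and lower were 433 and 215 in the first list, 370 and 309 in the second, and 1127 and 1051 in neither. Without WT replicate 3 they were 439 and 190, 380 and 277, and 1090 and 1053. Genes in the lists were better expressed, with a median level of 119 and 95.03 CPM against 18.1 CPM for genes in neither, and the part of expression level in these counts was not tested.

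The integrated stress response, in which phosphorylated eIF2 raises translation of the factor ATF4 and with it amino acid and chaperone genes, was more often higher than lower: 17 of 29 genes were higher and 1 lower (median 0.50). Atf4 had 345 and 334 CPM in clone 2, 265 and 246 CPM in clone 4, and 262, 242, 253 and 239 CPM in WT (FDR 0.104). The ATF4 target Chac1, which degrades glutathione, stood at 12.9 and 10.6 CPM in clone 2, 5.05 and 5.94 CPM in clone 4, and 1.97, 1.1, 1.45 and 0.923 CPM in WT. Chac1 lay above WT in all 4 KO libraries, more so in clone 2 (log2 fold change 2.63, SE 0.39, FDR 0.00207). Nupr1, a stress-induced chromatin protein, stood at 3.8 and 6.97 CPM in clone 2, 9.51 and 13.8 CPM in clone 4, and 0.986, 0.275, 1.08 and 0.615 CPM in WT. In Nupr1 no KO library entered the WT range, and the level rose, more so in clone 4 (log2 fold change 3.39, SE 0.48, FDR 0.00177). Trib3 (1.54), Herpud1 (1.4), Slc7a5 (1.01), Mthfd2 (0.95) and the factor Ddit3 (0.85) rose as well, the last a call that was lost without WT replicate 3. Ddit4, an inhibitor of mTORC1, fell, with 17.7 and 13.3 CPM in clone 2, 22.7 and 22.4 CPM in clone 4, and 46.5, 44.6, 43.2 and 45.6 CPM in WT. Ddit4 fell in KO without overlap, more so in clone 2 (log2 fold change -1.24, SE 0.16, FDR 0.00127). By clone the counts were 23 higher and 2 lower in clone 2, and 21 higher and 1 lower in the libraries labelled clone 4.

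Of 26 p53 targets 8 were lower and 3 higher (median -0.39), and without WT replicate 1, 2 or 3 the number called was 7. Clone 2 had 20 lower and 2 higher (median -0.69), and clone 4 had 10 lower and 8 higher (median -0.13). Bbc3, the death effector PUMA, stood at 28.8 and 31.1 CPM in clone 2, 32.8 and 28.7 CPM in clone 4, and 55.7, 65.2, 57.6 and 58.6 CPM in WT. Bbc3 lay below WT in all 4 KO libraries, with no difference called between the clones (log2 fold change -0.96, SE 0.08, FDR 0.000269). Mdm2, the ligase that degrades p53, lay below WT in clone 2 and above it in clone 4, with 331 and 339.6 CPM in clone 2, 567 and 530.2 CPM in clone 4, and 438, 468, 429 and 481 CPM in WT (FDR 0.888). Of 36 cell cycle genes 9 were lower and 4 higher (median -0.04), 5 called in all without WT replicate 1 or 2 and 4 without WT replicate 3. The clone medians were on opposite sides of 0, with 11 genes higher and 11 lower in clone 2 (median 0.08) and 7 higher and 14 lower in clone 4 (median -0.12). Ccna2, cyclin A2, stood at 320.0 and 319.8 CPM in clone 2, 243 and 267 CPM in clone 4, and 182, 188, 184 and 197 CPM in WT. In Ccna2 no KO library entered the WT range, and the level rose, more so in clone 2 (log2 fold change 0.61, SE 0.10, FDR 0.00267), while the D-type cyclin Ccnd1 had 37 and 38.2 CPM in clone 2, 186 and 170.3 CPM in clone 4, and 73.4, 78.4, 69.1 and 75.7 CPM in WT (-0.97 in clone 2 and 1.27 in clone 4). Of 29 genes of cholesterol and fatty acid synthesis 8 were higher and 1 lower (median 0.29). They were 8 higher and 5 lower in clone 2, and 19 higher and 1 lower in the libraries labelled clone 4, with medians of -0.03 and 0.55. Insig1, the sterol sensor that holds back SREBP, was highest in clone 2, with 183 and 197 CPM in clone 2, 83.7 and 89.3 CPM in clone 4, and 52, 49.5, 52.3 and 48.4 CPM in WT. Insig1 rose in KO without overlap, more so in clone 2 (log2 fold change 1.45, SE 0.29, FDR 0.00738). Of 21 glycolysis and hypoxia genes 3 were higher and 4 lower (median 0.02). The clones went opposite ways here, with 10 higher and 5 lower in clone 2 (median 0.26) and 3 higher and 11 lower in clone 4 (median -0.32). Vegfa, the vascular growth factor, stood at 179 and 186 CPM in clone 2, 132 and 125 CPM in clone 4, and 84.3, 90.5, 82.7 and 74.8 CPM in WT. Vegfa lay above WT in all 4 KO libraries, more so in clone 2 (log2 fold change 0.90, SE 0.14, FDR 0.00242). The glucose transporter Slc2a1 stood at 931 and 909 CPM in clone 2, 357 and 382 CPM in clone 4, and 535, 599, 550.0 and 488 CPM in WT (0.76 and -0.55). Of 7 mitochondrially encoded genes tested, mt-Nd1 and mt-Nd6 rose, by 0.50 and 0.60, the first a call that was lost without any 1 clone 2 or WT library. In clone 2 all 7 were higher (median 0.67), and in clone 4 there were 2 higher and 1 lower (median -0.02). The summed level of the list was 15360 and 15350 CPM in clone 2, 11150 and 9893 in clone 4, and 9858 to 11030 in WT. Without clone 4 replicate 2 the number called was 4, and without any 1 clone 2 or WT library it was 1.

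Differences between the clones were also examined by position on the chromosome, a look chosen after the values had been seen, so that what follows is a description with no test. Genes of at least 5 CPM were put in order along each chromosome (10610 genes, RefSeq positions on GRCm38.p6) and a running median of 11 neighbours was taken of each clone's log2 fold change against WT. Stretches where it passed 1 in size numbered 11 in clone 2 and 1 in clone 4, and the longest was in clone 2, at chr14:86655357-119099796 once extended to its outermost gene past that limit. It runs over 32.4 Mb from Diaph3 to Uggt2 and holds 34 genes, of which 30 had a log2 fold change of at least 1 in clone 2, where 6.47% of all genes placed did. The stretch was chosen for these values, which fixes the first share. Their median was 2.05, a 4.14-fold difference, with quartiles of 1.56 and 2.34, and in the libraries labelled clone 4 it was 0.11.

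Members of the stretch included Klf5, Dis3, Sox21, 2.11 for the ubiquitin ligase Mycbp2, 1.74 for the signalling inhibitor Spry2, 2.11 for the microRNA host gene Mir17hg, 3.28 for the chaperone Dnajc3 and 2.48 for the transporter Abcc4, as log2 fold changes in clone 2. The 4 members under the limit were Dach1 (-3.60), Klf12 (-2.18), Pcdh9 (-0.39) and Tpm3-rs7 (0.55). The next genes outside were Pcdh17, at -1.58 in clone 2, and Mbnl2, at -0.75. In libraries of the other times, none of which entered the 4 h comparison, the median over the same 34 genes in clone 2 was 2.02 at 0 h, 1.92 at 2 h and 1.62 at 8 h, as log2 of mean CPM + 0.5, against 0.16, 0.01 and 0.06 in clone 4. Of the 34 genes 16 were called higher between KO and WT, where 19.4% of all genes tested were. Clone 2 gives 2 of the 4 KO libraries and the stretch was chosen by its clone 2 values. The count of 16 is thus not independent of that choice.

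**Figure D4:**
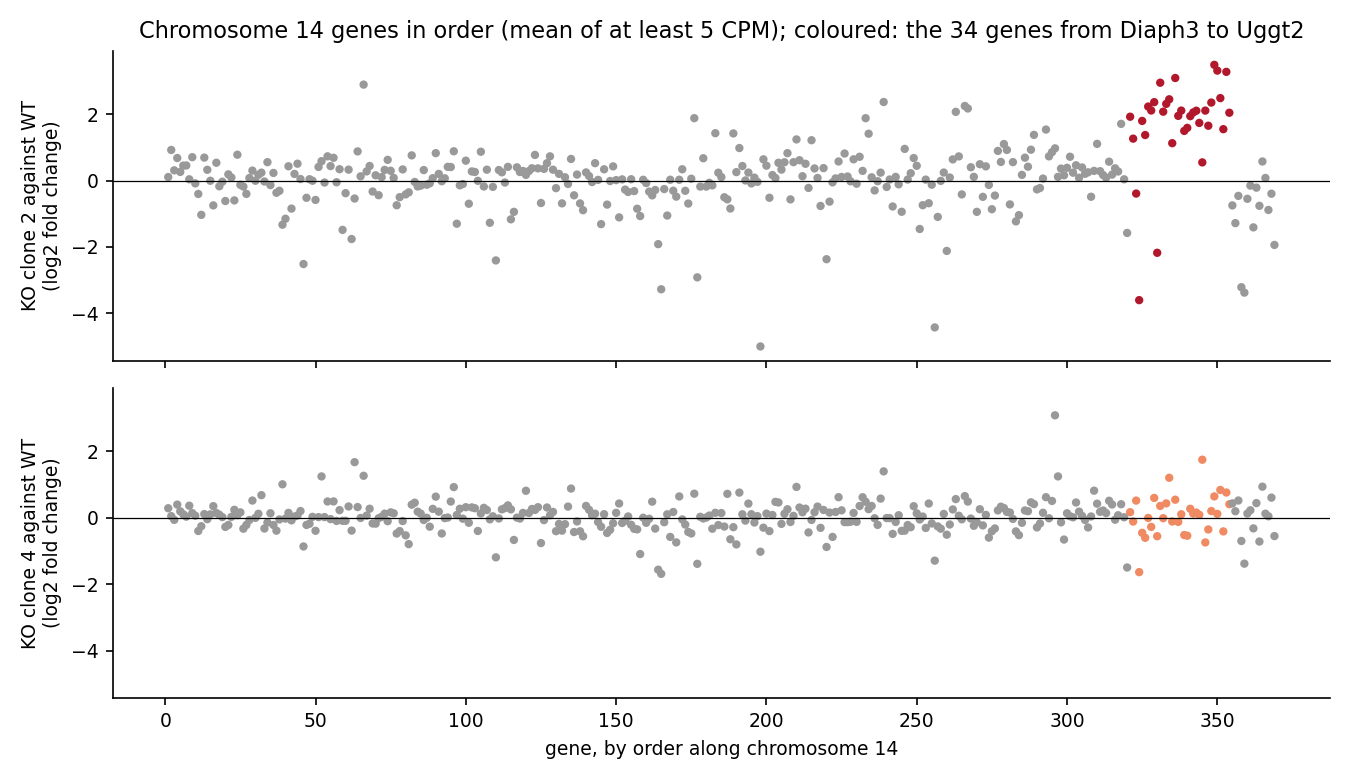
Log2 fold change against WT at 4 h of each chromosome 14 gene of at least 5 CPM, in gene order, for clone 2 (top) and clone 4 (bottom), 1 point per gene. The coloured points are the 34 genes from Diaph3 to Uggt2: in clone 2 30 of them lie at or above 1 with a median of 2.05, and in clone 4 their median is 0.11.

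A second clone 2 difference concerned the Y chromosome. Ddx3y had 4.54 and 5.63 CPM in clone 2 against 39.2 and 48.2 in clone 4 and 42.9 to 54.8 in WT, and Uty 0.736 and 0.670 against 13.4, 12.6 and 12.4 to 15.6. Eif2s3y, another Y-linked gene, had 41.7 and 43.0 in clone 2, 48.8 and 49.1 in clone 4 and 33.0 to 37.6 in WT, so that the 3 genes did not move together.

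The 4 h calls were set beside those at the other times, which have no library in common with the 4 h table. By their labels all times use the same 2 KO clones, so a difference that belongs to a clone can recur at each time. Shared calls are thus no replication over independent knockout clones. With 2 libraries of clone 2 and 1 of clone 4, KO and WT differed in 4092 genes at 0 h (26.1%, with 13.9% higher and 12.2% lower). They differed in 4163 at 2 h (31.5%, with 17% and 14.6%) and 2354 at 8 h (17.3%, with 10.3% and 7.06%). Of 2565 genes higher at 4 h and tested at both, 1572 (61.3%) were also higher at 0 h, which is 80.1% of the 0 h calls, and 0 were lower. Of 2250 genes lower at 4 h, 1259 (56.0%) were also lower at 0 h, 74.6% of the 0 h calls, and 4 were higher. At 2 h the shared calls were 1693 higher (66.8% of the 4 h calls) and 1367 lower (61.6%). At 8 h they were 1041 higher (41.0%) and 598 lower (27.0%). Separate fits at 0, 2, 4 and 8 h gave Fgf7 log2 fold changes of 3.78, 3.76, 4.04 and 4.08. Lama1 had 1.66, 1.56, 1.63 and 1.68. H19 had -1.72, -2.01, -1.73 and -1.68, and Usp18 had 3.78, 4.28, 3.66 and 5.38.

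Whether the KO to WT difference itself changed with the drug was tested in a fit of 31 RNA-seq libraries. Clone 4 replicate 1 at 0 h is not analysed here, so KO at 0 h held 2 libraries of clone 2 and 1 of clone 4, against 2 of each at the other times. Comparisons with 0 h therefore set unlike mixes of clones side by side, and what belongs to the mix and what belongs to the time cannot be told apart in the pooled values. Between 4 h and 0 h 15 of 14944 genes (0.1%) passed, 3 with a higher (0.0201%) and 12 with a lower (0.0803%) difference at 4 h, and 814 had an unadjusted p under 0.05. Between 4 h and 2 h 4 genes passed (0.0268%), 0.0134% each way, and between 8 h and 4 h 127 did (0.85%), 0.401% higher and 0.448% lower at 8 h. With the clones as separate groups in the fit, an alternative chosen after seeing the data, these counts were 435, 359 and 1921. DESeq2 called 33 between 4 h and 0 h. The count between 4 h and 0 h was 8 without WT replicate 1 or clone 4 replicate 2, and 9 without WT replicate 3. The count between 4 h and 2 h was 8 without clone 4 replicate 1 or WT replicate 4 and 2 without WT replicate 2. That between 8 h and 4 h was 46 to 83 without WT replicate 1, 2 or 3, either clone 2 library or clone 4 replicate 2.

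Dhrs3, the retinaldehyde reductase, had a lower mean at each later time in both genotypes. WT had 113 ± 9.11, 37.5 ± 2.87, 18.9 ± 1.67 and 3.92 ± 0.286 CPM at 0, 2, 4 and 8 h (mean ± SD, n = 4), scaled over all 31 libraries. KO had 73.9 ± 33.6 at 0 h (n = 3) and 45.7 ± 11.6, 33.8 ± 2.29 and 14.7 ± 4.71 later (n = 4), and the difference was higher at 4 h than at 0 h (log2 1.45, SE 0.30, FDR 0.0475). At 0 h the clones stood apart, with a mean of 55.0 CPM in clone 2 and 112 CPM in the clone 4 library, so that clone 2 lay below WT and clone 4 near it. At 4 h both clones lay above WT, with means of 35.1 and 32.4 CPM.

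Dusp10, a phosphatase of stress-activated kinases, had its highest mean at 4 h in both genotypes. WT had 7.43 ± 1.1, 29.8 ± 3.46, 42.3 ± 3.58 and 8.37 ± 1.58 CPM, and KO 13.7 ± 0.395, 27.9 ± 1.28, 35 ± 2.99 and 12.7 ± 2.0, so that the difference was lower at 4 h than at 0 h (log2 -1.17, SE 0.18, FDR 0.0019). Timp3, an inhibitor of matrix metalloproteinases, had the higher mean in KO at every time, with 215 ± 64.3 against 71.5 ± 6.21 CPM at 0 h and 339 ± 43.1 against 225 ± 13.1 at 4 h, a smaller ratio at 4 h (log2 -1.0, SE 0.18, FDR 0.0178). By clone the means of Timp3 were 252 and 141 CPM at 0 h, and 376 and 302 CPM at 4 h, in clone 2 and clone 4. Kdr, a receptor of VEGF, had 11.1 ± 0.340 against 6.46 ± 1.82 CPM at 0 h and 11.9 ± 3.01 against 18.2 ± 1.55 at 4 h (log2 -1.35, SE 0.26, FDR 0.0326).

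The remaining leading differences were in genes with near-identical copies. Tuba1b, an α-tubulin, had 101 ± 8.73, 119 ± 8.03, 60.7 ± 7.22 and 95.1 ± 3.89 CPM in WT and 100.3 ± 4.72, 100.3 ± 8.52, 30.9 ± 1.84 and 93.9 ± 6.88 in KO (4 h minus 0 h, log2 -0.96, SE 0.12, FDR 0.000217). Rps7 had 204 ± 6.45 CPM in WT at 0 h and 7.51 ± 1.15 at 4 h, with 4.21 ± 0.481 in KO at 4 h (log2 -1.04, SE 0.15, FDR 0.0019). Rps3a1 had 126 ± 10.6 CPM in WT at 0 h and 1.32 ± 0.529 at 4 h, with 4.23 ± 1.62 in KO (log2 1.6, SE 0.29, FDR 0.0145). The 4 h levels of these 3 genes lay below those of every other time in both genotypes, and the part of read assignment in these differences was not tested.

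**Figure D5:**
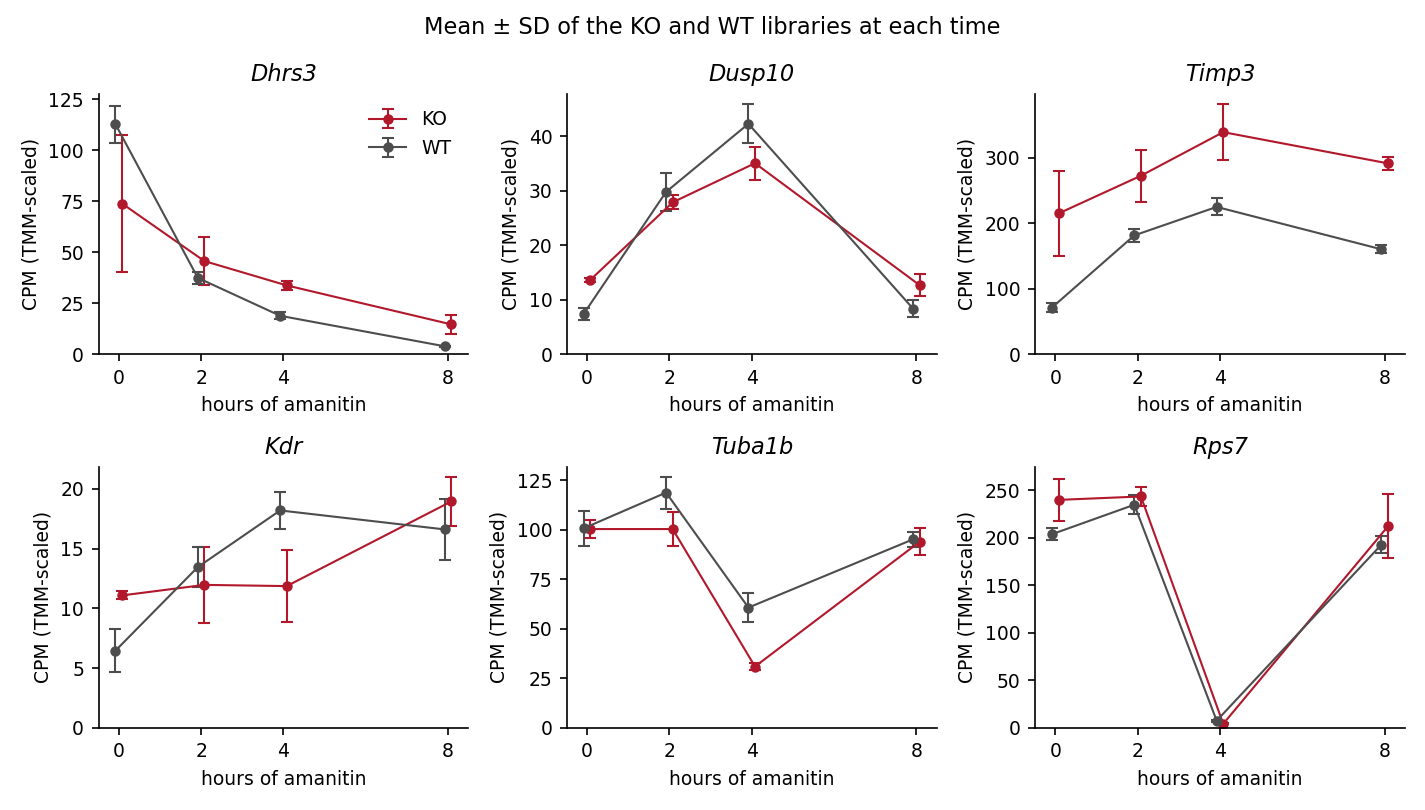
Mean and SD of the KO (red) and WT (grey) libraries in TMM-scaled CPM over hours of α-amanitin for 6 genes whose KO to WT difference changed between 0 h and 4 h (n = 4 per point, 3 for KO at 0 h, of which 2 are clone 2). Dhrs3, Dusp10 and Kdr cross between 0 h and 4 h, Timp3 stays higher in KO, and Tuba1b and Rps7 drop in both genotypes in the 4 h table and return at 8 h.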

How the data were processed

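RNA was sequenced from 31 libraries with a column in 4 deposited tables, 1 per time of α-amanitin, with the KAPA stranded mRNA kit per the labels' protocols. The values are raw counts per gene made by the authors. The submitters' processing notes name FastQC 0.11.9, STAR 2.4.0.1, TopHat, Cufflinks, Cuffdiff and DESeq2, with the builds GRCm38 and mm10. Which program counted the reads, by which annotation and whether by strand, is not given in the sources used here, so reads of antisense and overlapping genes cannot be told apart. Each table has 51520 lines, and 110 lines that repeat an identifier with identical counts were dropped, leaving 51410 genes.

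Counts of the 8 libraries at 4 h were filtered with filterByExpr, scaled by TMM and tested with edgeR 4.0.16 (R 4.3.3), by the robust quasi-likelihood test with Benjamini-Hochberg adjustment over all genes tested. The main fit has genotype only (6 residual degrees of freedom) and counts the 4 KO libraries, 2 from each clone, as separate. A fit of 3 groups (clone 2, clone 4, WT; 5 residual degrees of freedom) gave the clone values, and a fit of genotype by time over 31 libraries (23 residual degrees of freedom) the changes of the difference with time. A gene was called at an FDR under 0.05 with no limit on fold, and SE is the log2 fold change over the square root of F. The script was tested on simulated data.

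Named genes were Caprin1, the 12 called genes that rose most and the 12 that fell most, averaging 5 CPM or more, with no overlap between KO and WT, the 6 with the largest change of the difference between 0 h and 4 h each way, the key members of each list, and for each list the other called member of at least 1 CPM that rose most and fell most. Predicted genes were left out. Some genes that these rules name are not reported here. Further list members are named as examples and were chosen after their values were seen. The part of the series, the lists and the rules were chosen with earlier results of these data known. Of 764 list entries 2 were repeats and 760 matched the table. Alternatives were RLE and upper quartile scaling, other filters, a non-robust fit, a replicate block, DESeq2 1.42.0, other groupings and leaving out each library. Counts by single clones and the fit with clones as separate groups over time were chosen after seeing the data.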

Additional observations from a re-analysis of the deposited data

Results flagged for a closer look

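For 15 of the values named in the report, 1 library lay far from the other 3 of its genotype by Dixon's criterion. Clone 4 replicate 1 was the high one for Socs1 (8.92 CPM) and Tfap2c (2.38 CPM). Clone 4 replicate 1 was the low one for Xrn1 (92.3 CPM). Clone 4 replicate 2 was the high one for Nodal (8.11 CPM) and Xrn2 (277 CPM). WT replicate 1 was the low one for Klf5 (351 CPM) and Xist (8.01 CPM). WT replicate 2 was the high one for Gata4 (226 CPM), Irf9 (16.8 CPM) and mt-Co1 (2105 CPM). WT replicate 2 was the low one for Fos (16.0 CPM) and Mmp13 (0 CPM). WT replicate 4 was the high one for Dcn (10.1 CPM). WT replicate 4 was the low one for Rec8 (135 CPM) and Sox17 (57.6 CPM). Chance gives such a library in about 1 in 20 groups tested, if the 4 libraries of a group vary alike. Each of the 166 named genes has a KO and a WT group. The KO group joins 2 clones, so that rate need not hold there.

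The clones differed from each other at an FDR under 0.05 in 118 of the 166 named genes, given here as the log2 fold change of clone 4 over clone 2. Over all genes tested 47.6% differed. Among endoderm and basement membrane genes, the level was higher in clone 4 for Lama5 (0.73) and Krt19 (0.42). Srgn (-1.68), Sox17 (-1.55), Col4a1 (-1.48), Snai1 (-1.42), Col4a2 (-1.41), Gata4 (-1.39), Lama1 (-1.22), Lamb1 (-1.12), Pdgfra (-1.07), Lamc1 (-1.05), Sox7 (-0.97), Gata6 (-0.94), Dab2 (-0.55) and Thbd (-0.37) were lower in clone 4. Among pluripotency and two-cell-like genes, the level was higher in clone 4 for Esrrb (0.55) and Sox2 (0.43). Klf5 (-1.76), Arg2 (-1.25) and Fbxo15 (-0.67) were lower in clone 4. Among interferon, antigen presentation and chemokine genes, the level was higher in clone 4 for Ccl7 (2.05), Ccl2 (1.95), Vcam1 (1.59), Il1rl1 (1.51), Isg15 (0.86), Ifih1 (0.79), Ifit1 (0.75) and Lgals3bp (0.48). Irf9 (-1.15), Bst2 (-0.68), Calr (-0.37), H2-K1 (-0.28), Eif2ak2 (-0.28) and H2-D1 (-0.21) were lower in clone 4. Among retinoic acid, Hox, neural and mesodermal genes, the level was higher in clone 4 for Wnt3 (3.21), Nes (2.54), Hoxd1 (2.49), Nr2f1 (2.15), Nnat (2.09), Sox11 (1.97), Rec8 (1.53), Hand1 (1.34), Rarb (1.1), Crabp2 (0.97) and Kdr (0.65). Sox21 (-3.19) and Cyp26a1 (-1.64) were lower in clone 4. Among trophoblast and imprinted genes, the level was higher in clone 4 for Krt7 (1.96), Dlk1 (1.67), Cdx2 (1.26), Gata3 (0.73), Peg3 (0.62), Meg3 (0.53) and Cdkn1c (0.36). Tead4 (-0.76) and H19 (-0.29) were lower in clone 4. Among CAPRIN1 partners, decay factors, short-lived transcripts and ribosomal protein genes, the level was higher in clone 4 for Myc (1.66), Dusp5 (1.63), Egr1 (1.07), Rps3a1 (0.75), Jun (0.48) and Btg2 (0.26). Dis3 (-2.23), Tob1 (-1.36), Zfp36l2 (-1.18), Caprin2 (-0.47), G3bp1 (-0.35), Upf1 (-0.30) and Pabpc4 (-0.22) were lower in clone 4. Among stress response, p53 and cell cycle genes, the level was higher in clone 4 for Perp (2.31), Ccnd1 (2.24), Ccnd2 (1.24), Nupr1 (1.09), Ccng1 (0.96), Mdm2 (0.71), Cdkn1a (0.63) and Ddit4 (0.54). Chac1 (-1.11), Ddit3 (-0.77), Mki67 (-0.57), Atf4 (-0.41), Ccna2 (-0.33), Ccne2 (-0.32) and Aurkb (-0.30) were lower in clone 4. Among metabolic and mitochondrially encoded genes, the level was lower in clone 4 for Slc2a1 (-1.32), Insig1 (-1.14), Hk2 (-0.61), mt-Nd1 (-0.60), mt-Nd6 (-0.51), Vegfa (-0.50), Ldha (-0.43) and mt-Co1 (-0.43). Among fibroblast markers and Xist, the level was higher in clone 4 for Col3a1 (2.51), Col1a1 (1.91), Col1a2 (1.81), Fap (1.5), Dcn (1.43) and Xist (1.17). Timp3 (-0.30) was lower in clone 4. Among the remaining leading genes, the level was higher in clone 4 for Car3 (3.31), Ppbp (3.27), Ppp2r2b (3.23), Cavin2 (2.75), Mmp13 (2.71), Caprin1 (2.67), Slitrk4 (2.63), Slc16a12 (2.56), Ereg (2.49), Tm4sf1 (2.3), Apbb1ip (2.03), Pdgfb (2.03), Slc40a1 (1.92), Fgf7 (1.6), Calcr (1.55), Zfp36l3 (1.42) and Frem2 (1.01). Ptk6 (-3.46) was lower in clone 4.

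The KO to WT difference changed between 0 h and 4 h (later minus earlier time, log2) for Dhrs3 (1.45), Dusp10 (-1.17), Kdr (-1.35), Rpl35 (-1.04), Rps3a1 (1.6), Rps7 (-1.04), Timp3 (-1.0) and Tuba1b (-0.96). The KO to WT difference changed between 2 h and 4 h (later minus earlier time, log2) for Rps3a1 (1.66), Rps7 (-0.86) and Tuba1b (-0.72). The KO to WT difference changed between 4 h and 8 h (later minus earlier time, log2) for Bst2 (1.23), Dusp10 (0.87), Eno1 (0.90), Krt19 (1.15), Rpl35 (0.80), Rps3a1 (-1.52), Rps7 (0.95), Socs1 (1.17) and Tuba1b (0.95). Of all 14944 genes in that fit 0.1%, 0.0268% and 0.85% passed for the 3 intervals in that order. Eno1 had a lower mean at 4 h than at 2 h and 8 h in both genotypes. WT had 676, 208 and 476 CPM at 2, 4 and 8 h, and KO 478, 93.3 and 400. The part of read assignment in its change was not tested.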

How the results depend on the processing

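The main count of 4836 called genes became 8588 with the clones as separate groups, 8552 with clone 2 as the only KO and 0 with a replicate block. It ranged from 3069 to 5506 when 1 library was left out. Under the replicate block edgeR left 3618 genes at an unadjusted p under 0.05, and 137 of 166 named genes lost their call. Replicates 3 and 4 exist only in WT, so their blocks hold no KO library. Deviations of same-numbered libraries from their group means correlated between -0.0323 and 0.0404. In a clone of 2 libraries the deviations mirror each other, so this cannot show whether same-numbered libraries shared a batch. The labels do not say whether they did. In the fits by clone the block gave 8424, 6555 and 7358 called genes for clone 2, clone 4 and the clones against each other. RLE and upper quartile scaling, 2 other filters, a non-robust fit, DESeq2, the joint fit and clone 4 alone gave 4110 to 6345.

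For changes of the difference with time, DESeq2 called 33 genes between 0 h and 4 h, clone 2 with WT alone gave 905, and 12 clone and time groups gave 435. Without a filter the count between 2 h and 4 h was 1 and that between 4 h and 8 h was 26, and with 12 groups they were 359 and 1921. With 1 library left out the counts ranged from 8 to 17, 2 to 8 and 46 to 175. With the replicate block they were 11, 4 and 124. The cause of these moves was not tested. No called named gene changed direction under these alternatives. Depth limits genes with few counts, and WT replicate 2 had the fewest.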
